A study of Mus musculus with 4 samples.

Results

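Most genes described here serve the axoneme, the microtubule core of the sperm tail. All were taken from the deposited table by name: every symbol that starts with Dnah, Dnai, Dnal, Cfap, Drc, Rsph, Tekt or Odad followed by a digit. The rule found 92 of the 44509 symbols in the table: 16 Dnah, 5 Dnai, 2 Dnal, 4 Odad, 3 Drc, 8 Rsph, 6 Tekt and 48 Cfap symbols. The rule goes by name, so it also took Dnah2os, a noncoding transcript on the strand opposite Dnah2, and genes known from other cilia, such as Dnah5 and Cfap410. RNA came from mouse testis with busulfan-induced oligozoospermia, a low sperm count after a DNA-alkylating drug toxic to proliferating germ cells. In 2 libraries the mice had the busulfan model alone, and in 2 the model was followed by Cus-1, which the series title calls a resin glycoside from a cuscutae extract. All 4 libraries therefore share busulfan, and no untreated testis was analysed here. The labels give no strain, age, dose, route or time, and do not say whether a library came from 1 animal or from pooled tissue. P-values therefore set the difference between the groups against the spread among these samples only, and that spread may be technical. Group assignment rests on the source label, because the titles (BPA8, BPA9, CUS2-12 and CUS2-13) do not match it in wording. The comparison between these groups is the one the labels set up.

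The axoneme of a motile cilium or sperm tail is a ring of doublet microtubules around a central pair. Outer and inner dynein arms on each doublet hydrolyse ATP and slide the doublets past each other, docking complexes hold the outer arms, the nexin-dynein regulatory complex links neighbouring doublets, and radial spokes carry signals between the central pair and the arms. Tektins and many CFAP proteins line the inside of the doublets. In the testis these genes are transcribed mainly in spermatocytes and spermatids, the cells that will assemble a tail, so in whole tissue their level depends on how many such cells are present.

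Values are FPKM (fragments scaled to gene length in kilobases and to 1e+06 mapped fragments) and fold changes are on the log2(FPKM + 1) scale, busulfan with Cus-1 minus busulfan. That scale understates changes of genes with low values. In bulk tissue, fewer cells of a type and less RNA per cell cannot be told apart. The libraries held roughly 12.1 to 14.1 M fragments each, read from the spacing of low values and moving with the bin width used, over 5 widths. They do not fall into tight groups: the first principal component of all tested genes, with 65.8% of the variance, ran from busulfan 1 (-62.6) over busulfan 2 (-23.8) and Cus-1 2 (19.4) to Cus-1 1 (67). Markers of testis cells were present, with all 24 Sertoli and all 9 Leydig cell markers above the low-value filter.

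The promoters of these genes are shown first, because cilium genes are known targets of RFX factors, which bind the X-box. Whether RFX factors had a part in the members' values was not tested. RefSeq promoters of build GRCm38.p6, from 250 bases before the start to 50 after it, were found for 58 members with 65 starts, 2 of them through an older symbol. One arm of the X-box, GTTGCC (read on the other strand as GGCAAC), was in 23 of the 65 promoters (35.4%), against 12.5% of all 32851 promoters and 13.1% of those of tested genes. The promoters of 32 axoneme genes with other names held it in 18 (56.2%), and promoters of spermatocyte and spermatid markers in 6 of 47 (12.8%). Median GC content was 56.0% for the members and 59.0% for tested genes. A pair of arms was searched in 2 forms, both chosen after the single arm had been read. The first, the arm GTTNCC and its reverse complement with exactly 2 bases between them, was in the promoters of Cfap298 and Cfap20dc, once each (3.08% of member promoters, 0.451% of all and 0.587% of those of tested genes). The second, chosen after these hits were seen, took the arm GTTGCC and its reverse complement with 0 to 3 bases between them. It was in the same 2 genes (3.08%), against 0.161% of all and 0.21% of those of tested genes, so the wider contrast comes with a form chosen later. Each pair of the second form also counts as single arms. The CRE motif TGACGTCA, which reads the same on both strands, was in 1 member promoter, that of Dnah6. That is 1.54%, against 1.79% of all and 2.7% of those of tested genes, and this motif too was searched after seeing the data. The 4 promoters printed here were picked for their matches and show both genes with a pair, a tektin and a dynein heavy chain, 5′ to 3′ on the strand of the gene, and capitals mark X-box arms and pairs.
Cfap298: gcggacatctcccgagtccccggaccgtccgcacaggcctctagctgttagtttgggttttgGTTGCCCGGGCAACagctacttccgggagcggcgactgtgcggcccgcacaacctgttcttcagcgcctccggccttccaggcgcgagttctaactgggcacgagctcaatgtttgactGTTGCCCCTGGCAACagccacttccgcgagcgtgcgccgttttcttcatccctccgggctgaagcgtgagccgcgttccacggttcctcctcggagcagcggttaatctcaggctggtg
Cfap20dc: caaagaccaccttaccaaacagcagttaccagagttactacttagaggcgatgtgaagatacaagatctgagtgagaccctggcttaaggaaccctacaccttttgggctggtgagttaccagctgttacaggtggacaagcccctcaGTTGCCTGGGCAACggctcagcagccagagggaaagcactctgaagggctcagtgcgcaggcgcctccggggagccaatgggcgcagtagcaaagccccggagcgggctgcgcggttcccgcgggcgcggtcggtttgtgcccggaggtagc
Tekt1: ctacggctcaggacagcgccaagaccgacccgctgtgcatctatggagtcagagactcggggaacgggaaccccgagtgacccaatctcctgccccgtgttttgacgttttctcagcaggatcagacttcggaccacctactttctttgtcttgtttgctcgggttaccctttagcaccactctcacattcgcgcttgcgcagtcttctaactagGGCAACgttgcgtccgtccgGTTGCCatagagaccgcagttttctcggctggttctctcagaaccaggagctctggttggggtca
Dnah10: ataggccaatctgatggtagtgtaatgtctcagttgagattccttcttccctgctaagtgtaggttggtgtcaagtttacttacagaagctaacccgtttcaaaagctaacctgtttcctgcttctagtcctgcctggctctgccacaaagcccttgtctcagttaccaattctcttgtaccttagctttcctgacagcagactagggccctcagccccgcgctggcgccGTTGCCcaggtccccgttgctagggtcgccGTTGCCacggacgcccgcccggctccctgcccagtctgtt
Cfap298, a factor for the assembly of dynein arms (chr16:90934800-90935099, minus strand), has pairs of the second form that begin 188 and 69 bases before its start, the first form finding the one at 188. In Cfap20dc (chr14:8666241-8666540, minus strand) the pair begins 102 bases before the start. Tekt1 (chr11:72361833-72362132, minus strand) has single arms 35 and 15 bases before its start, and Dnah10 (chr5:124724835-124725134, plus strand) has them 20 bases before and 10 bases after. A match is a run of letters and does not show that a factor binds. Among tested members the median log2 fold change was 0.77 for the 21 with an arm and 0.85 for the 34 without.

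Axoneme genes lay higher in the testes given Cus-1, though none passed the adjusted test. Of the 92 members 88 reached 1 FPKM in at least 2 libraries and were tested. Their median log2 fold change was 0.83, against 0.04 for all 19837 tested genes, and 86 of 88 were above 0, as were 52.4% of all tested genes. In 80 of the 88 both Cus-1 libraries lay above both busulfan libraries, an arrangement found in 36.6% of all tested genes, and in 1 both lay below (31.7% of all). Cfap97d2 was the 1 member that reached the filter in no busulfan library. No member passed the limma test after Benjamini-Hochberg adjustment (0% of all tested genes passed), and the smallest adjusted limma p of a member was 0.152. At an unadjusted limma p under 0.05, 67 members were higher and 0 lower, while 18% of all tested genes were higher and 9.96% lower. That count was 23 without busulfan 1 (5.84% of all tested genes then higher) and 29 without Cus-1 1 (7.25%). Leaving those libraries out gave medians of 0.60 and 0.66.

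The libraries were ranked alike by most members. Busulfan 1 was lowest for 80 of the 88 tested members and Cus-1 1 highest for 78. The full order busulfan 1, busulfan 2, Cus-1 2, Cus-1 1 was seen without ties in 68 tested members (77.3%) and in 23.5% of all tested genes. It is the order of the first principal component. Differences within a group were therefore sizable: the median member was 1.36 times as high in busulfan 2 as in busulfan 1, and 1.27 times as high in Cus-1 1 as in Cus-1 2. The closest pair across groups, Cus-1 2 over busulfan 2, had a median ratio of 1.38, and the farthest, Cus-1 1 over busulfan 1, one of 2.45. The matching medians over all tested genes lay between 1.01 and 1.05.

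**Figure D1:**
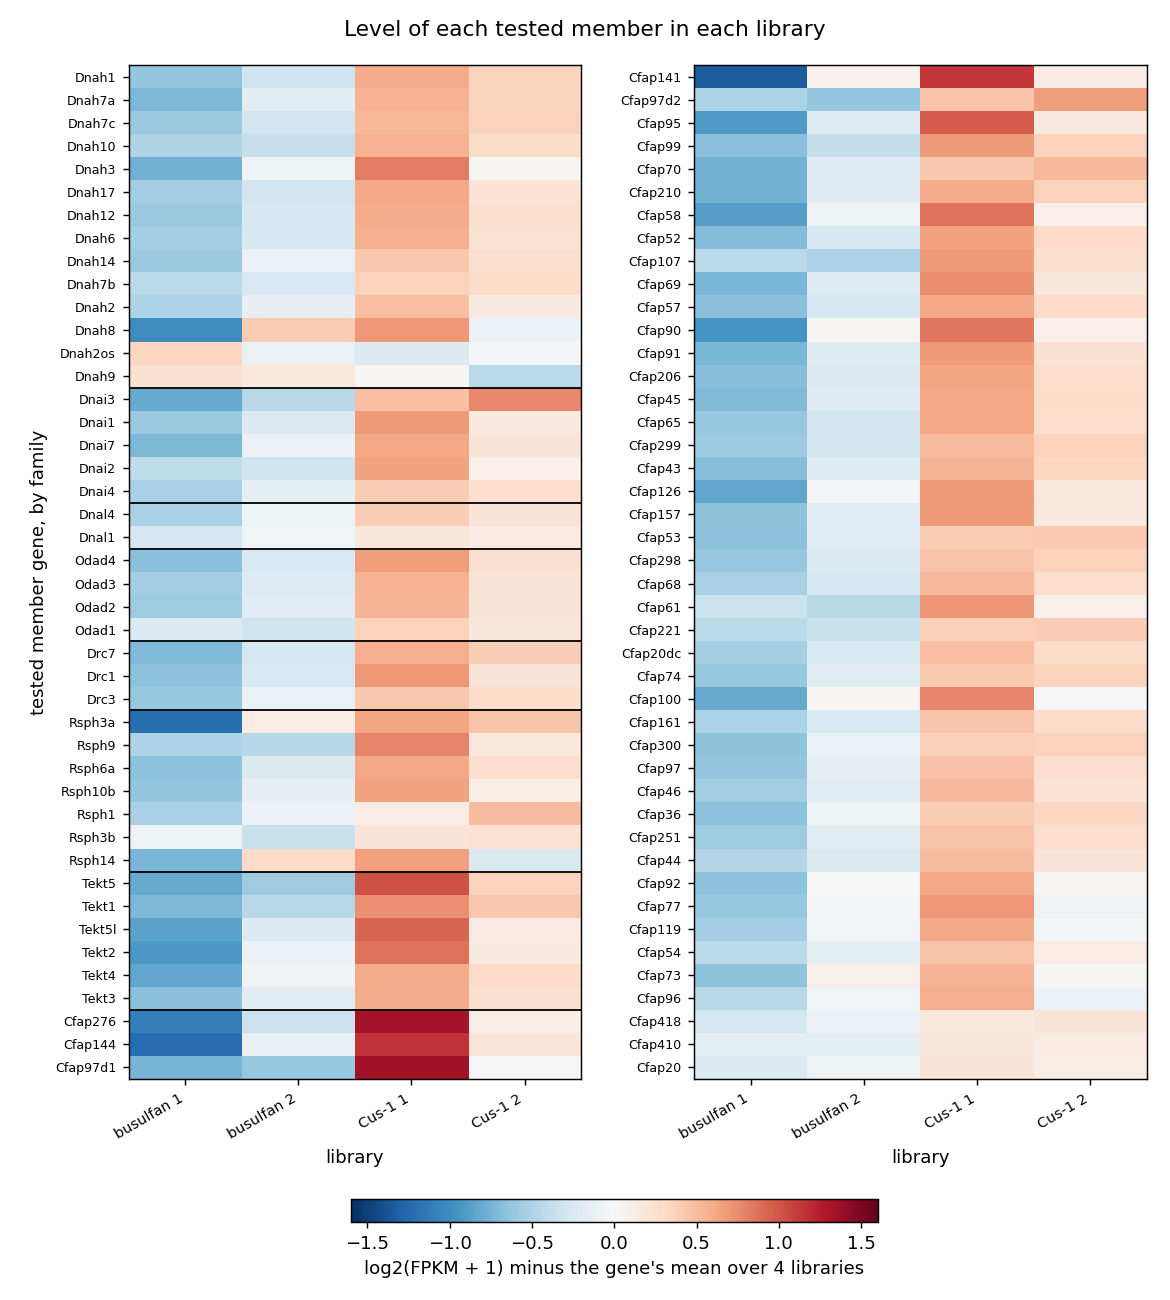
Each row is a tested member and each column a library, coloured by log2(FPKM + 1) minus the mean of that gene over the 4 libraries, with lines between families. Busulfan 1 is lowest and Cus-1 1 highest in most rows, and Dnah9 and Dnah2os run the other way.

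Dynein heavy chains, the motor subunits, are the largest group of arm proteins, and the table listed 15 of them beside Dnah2os. Among outer arm heavy chains the sperm genes and their relatives known from airway cilia were far apart in level. Dnah8, an outer arm chain of the sperm tail (chr17:30624354-30877365, mm10), was at 86.2 and 232 FPKM in the busulfan libraries and 284 and 163 in the Cus-1 libraries. It had the highest mean level of all heavy chains, and its groups overlapped, with busulfan 2 above Cus-1 2. Its log2 fold change was 0.60 (SE 0.53, adjusted p = 0.454 by limma), and it turned to -0.11 without busulfan 1 and stood at 1.31 without busulfan 2. Leaving out Cus-1 1 gave 0.20, and without Cus-1 2 it was 1.0.

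Dnah17, the other outer arm chain of the sperm tail (chr11:118021723-118130634), was at 17.7 and 21.5 FPKM in the busulfan libraries and 41.4 and 31.15 in the Cus-1 libraries. Both Cus-1 libraries were above both busulfan libraries, with a log2 fold change of 0.85 (SE 0.21, adjusted p = 0.152 by limma). The airway chain Dnah9 (chr11:65831282-66168551) was low and ran opposite to the other tested heavy chains, at 1.68 and 1.53 FPKM in the busulfan libraries and 1.28 and 0.68 in the Cus-1 libraries. It was the 1 member lower in both Cus-1 libraries (31.7% of all tested genes were). Its log2 fold change was -0.41 (SE 0.27, adjusted p = 0.331 by limma), with -0.63 when Cus-1 1 was left out and -0.19 when Cus-1 2 was. It was -0.72 with a pseudocount of 0.1 and turned to 0.21 when libraries were centred on Sertoli markers.

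The chains Dnah5 and Dnah11, which serve airway and nodal cilia, stayed below the filter. Dnah5 was listed at 0.03 and 0.06 FPKM in the busulfan libraries and 0.10 and 0.08 in the Cus-1 libraries. On its transcript of 15637 bases this amounts to roughly 6 to 22 fragments per library. Dnah11 overlapped between the groups, at 0.32 and 0.14 against 0.29 and 0.16 FPKM. In every library Dnah8 and Dnah17 were thus more abundant per length than Dnah9, Dnah11 and Dnah5, the smallest gap being that of Dnah17 over Dnah9 in busulfan 1, 10.6-fold.

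Inner arm heavy chains differed in the same direction. The 2 chains of inner arm dynein f and the 8 single-headed chains were all higher in both Cus-1 libraries (36.6% of all tested genes were). Their log2 fold changes lay between 0.63 and 0.94, and 9 of these 10 had an unadjusted limma p under 0.05 (18% of all tested genes were higher at that threshold). With 1 library left out, log2 fold changes of the single-headed chains lay between 0.45 (busulfan 1 left out) and 1.24 (Cus-1 2 left out). Dnah2, a dynein f chain (chr11:69420809-69549110), was at 23.7 and 30.8 FPKM in the busulfan libraries and 47.6 and 37.5 in the Cus-1 libraries. Its log2 fold change was 0.63 (SE 0.21, adjusted p = 0.160 by limma), and 0.45 without busulfan 1. Its partner Dnah10 was lower in level, at 3.88 and 4.25 against 9.0 and 7.33 FPKM. Dnah1, a single-headed chain whose loss gives men and mice short or malformed sperm tails (chr14:31260375-31323896), was at 9.08 and 11.4 FPKM in the busulfan libraries and 22.3 and 18.8 in the Cus-1 libraries. It had the largest log2 fold change of the heavy chains on the FPKM + 1 scale, 0.94 (SE 0.20, adjusted p = 0.152 by limma). Its ratio of mean FPKM, 2.01, was below the 2.35 of Dnah3, a chain of low level.

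Dnah7a, Dnah7b and Dnah7c are close copies on chromosome 1, and fragments could be divided among them in ways the table does not show. Summed, they were at 27.0 and 35.2 FPKM in the busulfan libraries and 60.0 and 54.0 in the Cus-1 libraries. Dnah3 was the least abundant single-headed chain, at 0.93 and 2.13 against 4.82 and 2.36 FPKM, and Dnah14 the most abundant, at 20.4 and 29.1 against 42.5 and 37.6. The noncoding Dnah2os, which lies within the Dnah2 locus (chr11:69448548-69453676), did not follow Dnah2. It was at 13.3 and 9.41 FPKM in the busulfan libraries and 8.64 and 10.1 in the Cus-1 libraries, so the groups overlapped (log2 fold change of -0.24 with SE 0.23, adjusted p = 0.495 by limma). Its value was -0.01 without busulfan 1, -0.47 without busulfan 2 and -0.14 when Cus-1 1 was left out, and 0.38 when centred on Sertoli markers. Whether the authors counted by strand is not given in the sources used here, so reads of the 2 genes cannot be told apart where they overlap.

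**Figure D2:**
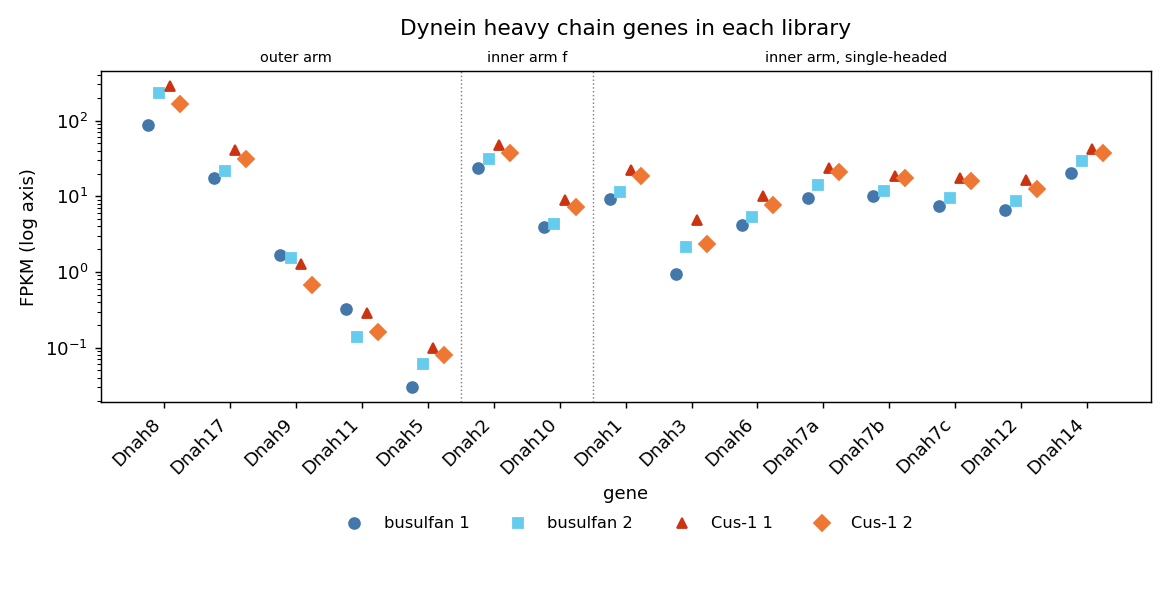
FPKM on a log axis of the 15 dynein heavy chain genes in each of the 4 libraries, each point being 1 library, ordered by arm. Dnah8 and Dnah17 lie above 10 FPKM and Dnah5 and Dnah11 below 1 FPKM in every library, and Dnah9 is the chain with both Cus-1 points below both busulfan points.

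Intermediate and light chains hold the motors together and tether them to the doublet. All 5 Dnai genes and both Dnal genes had both Cus-1 values above both busulfan values, as did 36.6% of all tested genes. Their medians were 0.83 and 0.46 (the latter 0.29 when busulfan 1 was left out). At an unadjusted limma p under 0.05, 5 and 1 of them were higher, against 18% of all tested genes. Dnai1 and Dnai2, the outer arm intermediate chains, were at 15.3 and 19.95 against 38.5 and 26.5 FPKM, and at 17.3 and 18.5 against 36.9 and 24.8 FPKM. Their log2 fold changes were 0.83 (SE 0.25) and 0.72 (SE 0.23), the latter at 0.45 without Cus-1 1. Dnai3, of inner arm dynein f, went from 14.3 and 18.6 FPKM with busulfan to 36.1 and 44.4 with Cus-1, the largest log2 fold change of the family at 1.25 (SE 0.21, adjusted p = 0.152 by limma). It was 1 of 8 tested members with their highest value in Cus-1 2. Dnai4 was at 0.67 (SE 0.20). The light chain genes differed least: Dnal4 was at 22.6 and 31.0 against 43.5 and 38.2 FPKM (0.60, SE 0.21), and Dnal1 at 10.02 and 11.9 against 14.1 and 13.5 (0.31, SE 0.18). Without busulfan 1 these were 0.38 and 0.20.

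The outer arm docking complex, which fixes the outer arms at regular spacing, was covered by Odad1 to Odad4. All 4 were apart, both Cus-1 values lying above both busulfan values (36.6% of all tested genes), with a median of 0.75. All 4 were also higher at an unadjusted limma p under 0.05 (18% of all tested genes). Odad4 was the most abundant, at 27.5 and 37.5 FPKM in the busulfan libraries and 71.2 and 52.6 in the Cus-1 libraries (log2 fold change of 0.91 with SE 0.24). Odad1 had the smallest change, at 8.40 and 7.86 against 13.2 and 11.5 FPKM (0.55, SE 0.18). Odad2 and Odad3 were at 0.74 (SE 0.25) and 0.75 (SE 0.21). Of the nexin-dynein regulatory complex, Drc1 was at 24.4 and 33.0 against 64.1 and 45.5 FPKM, Drc3 at 14.7 and 21.2 against 31.3 and 28.3, and Drc7 at 11.1 and 15.3 against 28.4 and 25.0. Their log2 fold changes were 0.90 (SE 0.25), 0.72 (SE 0.22, 0.47 without busulfan 1) and 0.98 (SE 0.21). All 3 were apart and higher with Cus-1 (36.6% of all tested genes), and all 3 were higher at an unadjusted limma p under 0.05 (18% of all tested genes).

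Radial spoke genes varied widely in level and in their differences. Rsph1, a spoke head protein (chr17:31255019-31277383), was the most abundant of the 92 members, at 732 and 978 FPKM in the busulfan libraries and 1135 and 1474 in the Cus-1 libraries. It was highest in Cus-1 2 (log2 fold change of 0.61 with SE 0.26, adjusted p = 0.193 by limma) and stood at 0.40 without busulfan 1. Rsph6a, the spoke head protein of the sperm tail (chr7:19054690-19074447), was at 37.0 and 50.1 FPKM in the busulfan libraries and 91.0 and 71.5 in the Cus-1 libraries (0.89, SE 0.22, adjusted p = 0.152 by limma). Its relative Rsph4a, known from airway cilia, was below the filter at 0.09 and 0.11 against 0.17 and 0.11 FPKM, roughly 4 to 9 fragments per library. Per length, Rsph6a was 412 to 650 times as high as Rsph4a in the 4 libraries, a ratio that rests on these few fragments.

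Rsph3a and Rsph3b are near-identical copies on chromosome 17, and their values are uncertain. Rsph3a was at 83.3 and 209.5 FPKM in the busulfan libraries and 299.6 and 265 in the Cus-1 libraries, while Rsph3b was at 103 and 84.7 against 126 and 128. The sum was 186 and 294 against 426 and 393 FPKM, with both Cus-1 libraries higher. The log2 fold change of Rsph3a was 1.09 (SE 0.45), 0.43 without busulfan 1 and 1.75 without busulfan 2, and that of Rsph3b 0.44 (SE 0.16), or 0.29 under quantile normalization. Rsph9 was at 29.3 and 30.1 FPKM with busulfan, the tightest busulfan pair among the sperm spoke genes named here, and at 72.8 and 47.0 with Cus-1 (0.96, SE 0.24). Rsph14 overlapped between the groups, at 3.12 and 7.46 against 9.77 and 4.80 FPKM (0.42, SE 0.47). It turned to -0.10 without busulfan 1 and -0.03 without Cus-1 1, with 0.94 when busulfan 2 and 0.87 when Cus-1 2 was left out.

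**Figure D3:**
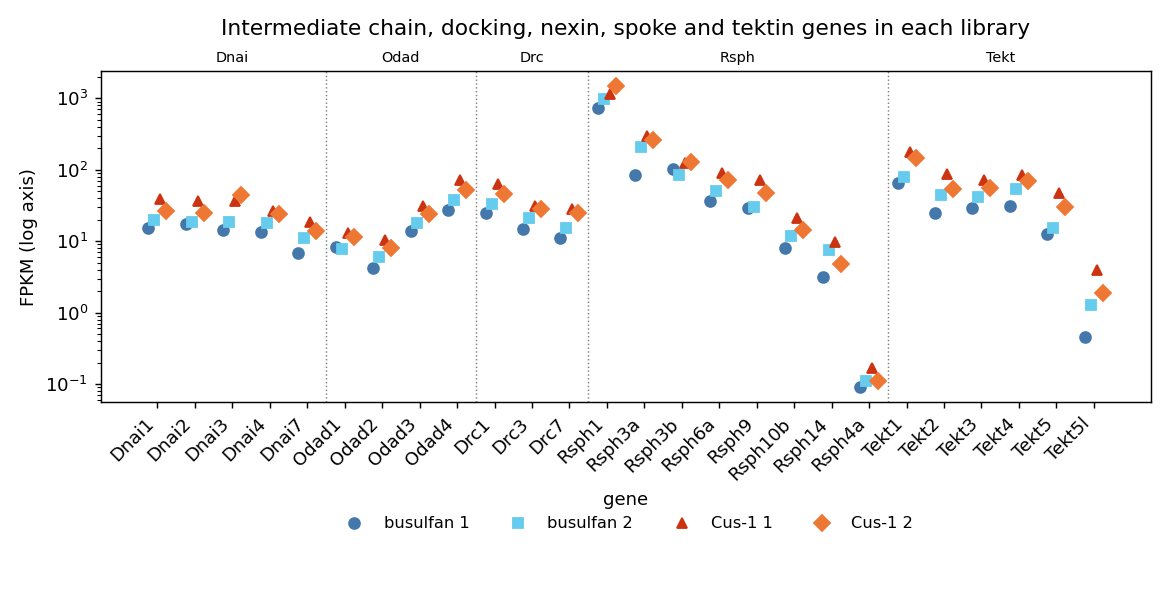
FPKM on a log axis of the Dnai, Odad, Drc, Rsph and Tekt genes in each of the 4 libraries, each point being 1 library. Rsph1 is the most abundant and Rsph4a the least, and the Cus-1 points of all 6 Tekt genes lie above both busulfan points.

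Tektins, filaments along the inside of the doublet wall, had the highest family median, 1.04. All 6 were higher in both Cus-1 libraries (36.6% of all tested genes were). All 6 also had an unadjusted limma p under 0.05 (18% of all tested genes were higher at that threshold). Leaving out busulfan 1 gave a family median of 0.67 and leaving out Cus-1 1 gave 0.71. Tekt1 (chr11:72344722-72362442) was the most abundant, at 64.7 and 78.4 FPKM in the busulfan libraries and 179 and 145 in the Cus-1 libraries (log2 fold change of 1.16 with SE 0.19, adjusted p = 0.152 by limma). Tekt5, a tektin of the sperm tail (chr16:10357948-10395490), was at 12.7 and 15.3 against 47.6 and 29.8 FPKM. It had the largest log2 fold change of the family on the FPKM + 1 scale, 1.37 (SE 0.27, adjusted p = 0.152 by limma). Its relative Tekt5l was far lower in level, at 0.45 and 1.26 against 4.0 and 1.88 FPKM. The log2 fold change of Tekt5l was 1.07, but its ratio of mean FPKM, 3.44, was above the 2.77 of Tekt5. Tekt3 and Tekt4 were at 0.85 (SE 0.23) and 0.90 (SE 0.29), the latter at 0.51 without busulfan 1. The difference between family medians was not tested.

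The Cfap genes are named only for their presence in cilia and flagella and do many jobs. Of 48, 47 were tested, all with a positive log2 fold change (52.4% of all tested genes). In 43 both Cus-1 values lay above both busulfan values (36.6% of all), and 34 were higher at an unadjusted limma p under 0.05 (18% of all). The median was 0.82. Cfap47 alone missed the filter, at 0.99 and 0.96 against 1.40 and 0.97 FPKM. The most abundant were Cfap36, at 160 and 238 FPKM in the busulfan libraries and 335 and 316 in the Cus-1 libraries (0.73, SE 0.23, 0.45 without busulfan 1), and Cfap206, a protein needed for the base of the radial spokes, at 107 and 147 against 269 and 211 (0.92, SE 0.23). The 4 that overlapped were Cfap73, Cfap77, Cfap96 and Cfap100, in each of which busulfan 2 lay just above Cus-1 2. All 4 were below 13 FPKM in every library.

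The smallest changes of the family were those of Cfap20 and Cfap410. Cfap20, a doublet protein found in most cilia, was at 58.3 and 64.1 FPKM in the busulfan libraries and 78.6 and 72.7 in the Cus-1 libraries (log2 fold change of 0.30 with SE 0.15, and 0.17 under quantile normalization). Cfap410, a gene of primary and photoreceptor cilia, was at 14.0 and 13.9 against 17.98 and 17.3 FPKM (0.32, SE 0.16). The largest belonged to Cfap276, at 13.3 and 23.2 against 75.7 and 32.04 FPKM (1.44, SE 0.47), and Cfap144, at 10.7 and 24.1 against 59.99 and 30.2 (1.35, SE 0.49). Both are proteins of the inside of the doublet and both were led by Cus-1 1, without which they were at 0.83 and 0.86. Cfap144 was at 0.80 without busulfan 1. This ranking holds on the FPKM + 1 scale only. The ratio of mean FPKM was 2.95 for Cfap276 and 2.59 for Cfap144, but 5.16 for Cfap97d2, which reached the filter in no busulfan library.

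Grouped by place, 20 proteins of the inside of the doublet, tektins included, had a median of 0.93, with 19 higher in both Cus-1 libraries and 16 with an unadjusted limma p under 0.05. The 8 tested Cfap genes of the central apparatus had a median of 0.84, all 8 apart. The 10 Cfap genes whose loss is known to give multiple morphological abnormalities of the sperm flagellum, among them Cfap43, Cfap44, Cfap69 and Cfap251, had a median of 0.91, all 10 higher in both Cus-1 libraries and 9 with an unadjusted limma p under 0.05. Their log2 fold changes lay between 0.69 and 0.96. Without busulfan 1 the medians of these groups were, in the same order, 0.64, 0.68 and 0.66. The 4 sperm-type relatives (Dnah8, Dnah17, Rsph6a and Tekt5) were at 0.60 to 1.37, while of the 4 airway-type relatives (Dnah5, Dnah9, Dnah11 and Rsph4a) only Dnah9 was tested.

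**Figure D4:**
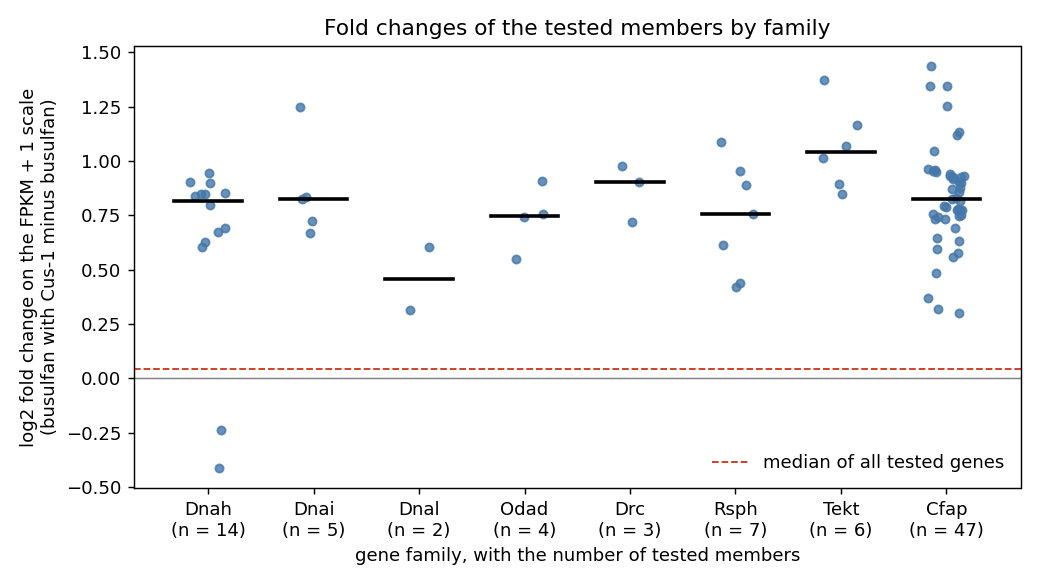
Log2 fold changes on the FPKM + 1 scale of the 88 tested members by family, 1 point per gene, with black bars at the family medians and a dashed line at the median of all tested genes (0.04). Family medians lie between 0.46 for Dnal and 1.04 for Tekt, and the points below 0 are Dnah9 and Dnah2os.

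Axoneme genes with other names differed in the same direction. Of 45 symbols on a list of such genes 31 were in the table, all were tested, and all 31 were higher in both Cus-1 libraries (36.6% of all tested genes). At an unadjusted limma p under 0.05, 30 were higher (18% of all tested genes), and 0 passed after adjustment. The median of the 31 was 0.94. Spata4, the most abundant, was at 311 and 424 FPKM in the busulfan libraries and 791 and 653 in the Cus-1 libraries. Of 13 tested factors that assemble dynein arms in the cytoplasm before they enter the tail, 12 had both Cus-1 values above both busulfan values (36.6% of all tested genes). At an unadjusted limma p under 0.05, 11 were higher (18% of all tested genes). The median of the 13 was 0.74, or 0.59 when busulfan 1 was left out. Dnaaf1 led in level, at 128 and 167 against 298 and 255 FPKM. Ruvbl1, an ATPase used by many complexes, overlapped, at 30.6 and 35.6 against 39.4 and 35.3 FPKM.

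Regulators of cilium and spermatid genes were mixed in level. Rfx2, the RFX factor of spermatids, was at 28.8 and 36.0 FPKM in the busulfan libraries and 73.5 and 55.2 in the Cus-1 libraries (log2 fold change of 0.96 with SE 0.21, adjusted p = 0.152 by limma). Foxj1, the factor of motile cilia, overlapped at 2.13 and 6.82 against 11.1 and 6.59 FPKM. Of 11 tested regulators 8 were apart and higher and 0 apart and lower (36.6% and 31.7% of all tested genes). Their median was 0.76, or 0.43 when busulfan 1 was left out. The list's most abundant gene was Tbpl1, which is also on the round spermatid list, at 133 and 177 against 297 and 250 FPKM (0.82, SE 0.21).

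The members lay high and low with markers of the germ cells that build tails. Median log2 fold changes were 0.94 for 16 spermatocyte markers, 1.08 for 14 round spermatid markers and 1.20 for 15 elongating spermatid markers, and -0.73 for 24 Sertoli cell markers, the somatic cells of the tubule. Mns1 of the spermatocyte list is also among the axoneme genes with other names. Crem and Tbpl1 of the round spermatid list are also among the regulators. Leaving out busulfan 1 gave 0.58 for spermatocyte markers. Leaving out Cus-1 1 gave 0.70 for round and 0.48 for elongating spermatid markers, and leaving out Cus-1 2 gave 1.89 for the elongating list. Leydig markers had a median of -0.50, with 6 of 9 lower in both Cus-1 libraries, and moved to -0.28 or -0.78 when Cus-1 1 or Cus-1 2 was left out. Macrophage markers had a median of -0.64, with 8 of 10 lower in both. Both Cus-1 libraries exceeded both busulfan libraries for all 45 germ cell markers, and 22 of the 24 Sertoli markers were lower in both. Among all tested genes 36.6% were higher and 31.7% lower in both. The gap between the marker median and the tested members' median was then read within each library, with the busulfan pair first and the Cus-1 pair second, on the log2 scale. Spermatocyte markers lay above the members by 2.03 and 2.29 and by 2.19 and 2.33. Round spermatid markers differed from them by -0.06 and 0.11 and by 0.42 and 0.09, and elongating spermatid markers by 2.29 and 2.24 and by 3.08 and 2.10. The mean gap to these 3 lists was larger with Cus-1 by 0.10, 0.23 and 0.32, and the gap to Sertoli markers changed by -1.53. The germ cell changes depended on single libraries. With 1 library left out, the spermatocyte change ran from -0.03 (busulfan 1) to 0.23 (busulfan 2), the round spermatid change from 0.07 (Cus-1 1) to 0.40 (Cus-1 2) and the elongating spermatid change from -0.17 (Cus-1 1) to 0.82 (Cus-1 2). How much of the members' difference comes from the share of germ cells was not tested.

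**Figure D5:**
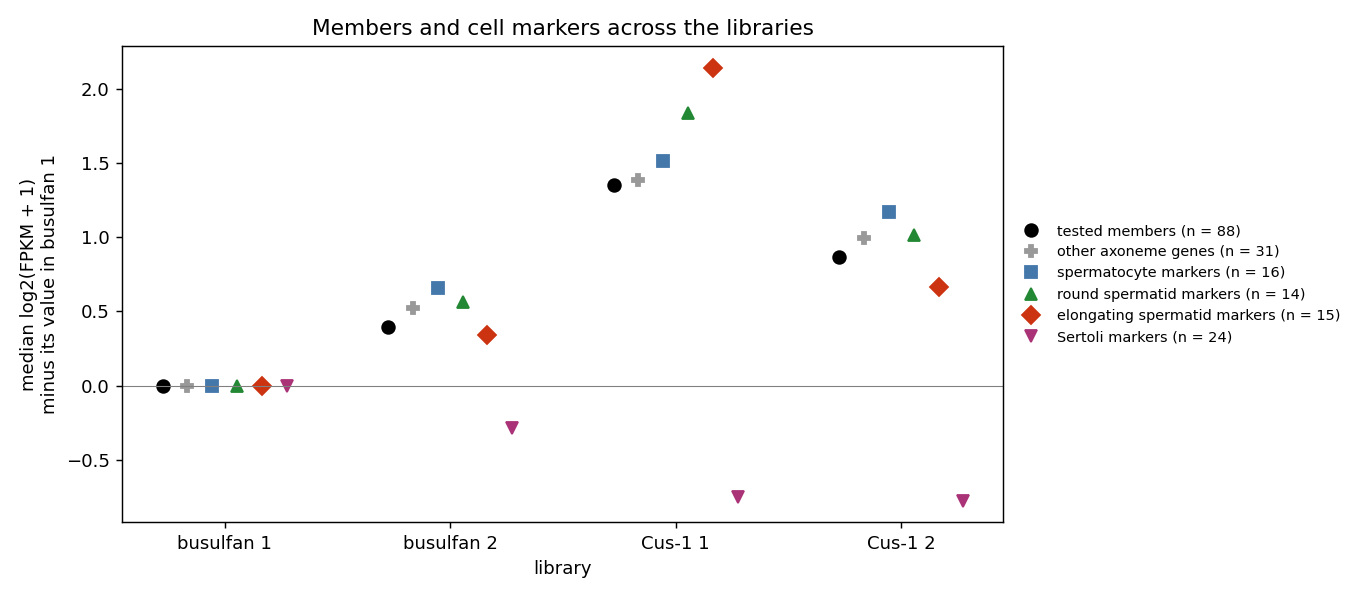
Median log2(FPKM + 1) of the tested members, of axoneme genes with other names and of cell marker lists in each library, minus the same median in busulfan 1. Members, spermatocyte and round spermatid markers are highest in Cus-1 1 and next highest in Cus-1 2, elongating spermatid markers show the widest gap between the Cus-1 libraries, and Sertoli markers run the other way.

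Motile cilia also line the ducts that leave the testis, so markers of multiciliated and duct cells were read beside the members. Of 11 multiciliated cell markers 10 were in the table and 4 were tested, and their summed level was 60.8 to 91.97 FPKM with busulfan and 123 to 174 with Cus-1. Nearly all of that came from Cdhr4 and Deup1, named after their values were seen. Regulators that set up multiciliated cells differed in level: Mcidas was at 0.03 FPKM or less and Gmnc at 0.18 or less in every library, while Ccno was at 0.83 to 1.21 FPKM and Foxj1 at the values given above. Of 16 markers of efferent ducts and epididymis 10 were in the table. Their sum, 3435 to 4182 FPKM with busulfan and 1855 to 2962 with Cus-1, was nearly all Lcn2. It therefore gives the level of that gene and not of the list. Cst8 followed at 37.2 and 49.8 against 85.5 and 43.7 FPKM, Cftr was at 1.48 to 3.15 and Rnase10 at 1.68 to 3.03. Pax8 reached 1.24 FPKM in busulfan 1, and Adam7 and Cdh16 were at 0.04 or less in every library. The part of duct or multiciliated cells in the members' values was not tested.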

How the data were processed

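The authors deposited 1 table of FPKM values per gene and library, printed to 2 decimals. Per the submitters' processing notes, reads were placed on mm10. The sources used here name no aligner, counter, annotation or strand setting. Values stood on 45536 rows, and 46 rows were blank. Its 910 rows without a gene name held 0.641% to 0.688% of the summed FPKM per library and were left out. Columns were assigned by the library name in the labels, and replicates numbered in order of submission. For repeated symbols the row with the highest mean was used.

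Genes that reached 1 FPKM in 2 or more libraries were tested with limma 3.58.1 in R 4.3.3 (empirical Bayes, trend on the mean) on log2(FPKM + 1), adjusted by Benjamini-Hochberg over all tested genes at 0.05; the script was tested on simulated data. In this design the smallest p of an exact permutation test (two-sided) of 1 gene is 0.333. Depth was estimated from the low values: FPKM times length, over genes with 1 transcript, peaks at the worth of 1 fragment, and the peak moves with the histogram's bin width (5 widths tried). Positions are from GENCODE M21 (65 of 92 members matched) and promoters from RefSeq; of the motifs, the single X-box arm was planned, while the arm pair, CRE and the promoters of other lists were added after seeing the data, and the pair was redefined once its hits were known. Rows whose groups do not overlap are described as apart, with no test.

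The members and gene lists were chosen with earlier results of these data known. Within each family the genes named are the 2 most abundant and those with the 2 largest and 2 smallest fold changes, with all outer arm heavy chains and sperm-type or airway-type relatives; others are named as members of a list, for their role or for an overlap, after their values were seen. Alternatives were another pseudocount, other filters, 3 scalings, limma without trend, and each library left out.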

Additional observations from a re-analysis of the deposited data

How the results depend on the processing

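When each library was centred on 24 Sertoli markers, the median of all tested genes went from 0.04 to 0.66 and that of the members to 1.45. The family medians were then 1.44 for Dnah, 1.45 for Dnai, 1.08 for Dnal, 1.37 for Odad, 1.52 for Drc, 1.37 for Rsph, 1.66 for Tekt and 1.44 for Cfap. With that centring 81 members passed the adjusted limma threshold, as did 32.7% of all tested genes, 0 members were lower in both Cus-1 libraries, Dnah9 turned to 0.21 and Dnah2os to 0.38. Under quantile normalization the median of all genes was -0.06 and the Dnah median 0.71. With a 5 FPKM filter, which drops Dnah9, 0 members were lower in both.

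Leaving out each library in turn, the count at an unadjusted limma p under 0.05 ran from 23 to 67, the count lower in every Cus-1 library from 1 to 2, the Dnah median from 0.61 to 0.98 and the Odad median from 0.58 to 0.93. Dnah8 ran from -0.11 without busulfan 1 to 1.31 without busulfan 2, and Rsph14 from -0.10 (busulfan 1 left out; -0.03 for Cus-1 1) up to 0.94 (busulfan 2 left out); the cause was not tested. In these fits a group of 1 library is assumed to vary like the other. Chosen after seeing the data, list medians were read with each library left out, leaving out Dnah2os gave a median of 0.83 and summing Rsph3a with Rsph3b one of 0.83. No paired analysis was possible because the labels give the samples no shared replicate numbers. Values under about 0.1 FPKM rest on few fragments and carry wide counting error.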

Other observations

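Cytoplasmic dynein, the motor that carries cargo along microtubules in every cell, was read as a counterpart to the axonemal motors. Its 24 listed genes take in dynactin and regulators, and also Dync2h1 and Dync2li1 of the dynein that carries cargo inside cilia. The 24 had a median log2 fold change of 0.10, and 0 passed the adjusted limma threshold. In both libraries given Cus-1, 11 lay higher and 8 lower, against 36.6% and 31.7% of all tested genes. At an unadjusted limma p under 0.05, 2 were higher and 3 lower (18% and 9.96% of all tested genes). The list's median was 0.03 when Cus-1 1 was left out and 0.24 when Cus-1 2 was. The heavy chain Dync1h1 was at 35.5 and 37.9 FPKM in the busulfan libraries and 49.9 and 43.5 in the Cus-1 libraries. Light chain genes split, the following being named after their values were seen. Dynlrb2, known from motile cilia and on the list of axoneme genes with other names, was at 41.0 and 59.9 against 104 and 92.3 FPKM, while its relative Dynlrb1, on the cytoplasmic list, was at 123 and 123 against 73.1 and 94.4. Dynlt1a, one of several near-identical copies whose values are uncertain, was at 12.2 and 9.81 against 35.8 and 29.2 FPKM, and its copy Dynlt1b overlapped at 593 and 894 against 916 and 560. Dynlt3 was at 56.3 and 51.6 against 28.2 and 38.4 FPKM.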
